A study of Mus musculus with 4 samples.

Results

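The subject is the maturation of mouse dendritic cells (DCs) by lipopolysaccharide (LPS), read as the difference between 1 array of LPS-matured DCs (maDCs) and 1 array of immature DCs (imDCs). Members were all probes well above background on at least 1 of the 2 arrays: 28989 of 41174 non-control probes, or 70.4%, which stood for 15387 of 19806 genes. Of these probes, 24524 were well above background on both arrays, 411 only on the maDC array and 4054 only on the imDC array. The series holds 4 1-colour Agilent arrays, 1 per culture, all from BALB/c mice. The imDCs came from bone marrow mononuclear cells freed of red cells and grown with GM-CSF at 10 ng/mL and IL-4 at 5 ng/mL. On day 4 the floating cells were washed off, and the loosely attached clusters were taken and selected on magnetic beads for CD11c. The maDCs were such selected imDCs kept 4 to 5 days longer with LPS at 10 ng/mL, a bacterial cell wall component. The labels do not say whether GM-CSF and IL-4 were kept in the medium of these added days. On the remaining 2 arrays were sDCs, which grew from lineage-depleted progenitors on a layer of Sca-1+CD117-Lin- mesenchymal stem cells with LPS added on day 4, and the same culture with an antibody that neutralizes IL-10; their levels are given here for comparison only. The sources used here do not give how many mice a culture came from.

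Immature DCs take up antigen and divide or wait, while mature DCs present it to T cells. LPS is bound by CD14 and MD-2 and signals through the receptor TLR4 to the NF-kB factors and, by another route, to interferon regulatory factors. The NF-kB route is known for inflammatory cytokine and chemokine genes, and the interferon route for interferon beta and the genes that interferons in turn switch on.

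With 1 array per group there was no replicate, no test and no standard error, and every value is a difference between single arrays. It is given as log2 of maDC minus log2 of imDC after each array's 75th percentile was subtracted, so that a level of 0 is that percentile and a difference of 1 is 2-fold. Called higher or lower means past 2-fold. A gene's difference stands in brackets after its name, and 2 values joined by "to" are its imDC and its maDC level unless probes are named. Summed intensities of marker lists are not scaled unless a ratio says so. Slide and scan of the imDC array differed from those of the other 3, the maDCs had been cultured longer, and the samples held no culture of that length without LPS. LPS, time in culture, slide and a different makeup of cells cannot be told apart in any difference below. In RNA from bulk cultures, fewer cells of a type and less RNA per cell cannot be told apart either.

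Of 19806 genes on the array, 14118 had a value, 13576 of them measured on both arrays and 542 as a bound, written "at least", because the probe was dim on 1 array. A bound holds for this processing and could be smaller under another. Among genes with a value, 3047 (21.6%) were called higher and 1518 (10.8%) lower in maDCs, and the median difference was 0.18. Lists of genes are read against these shares: they named 1175 different genes, of which 1152 were on the array and 1091 had a value, 427 of them higher and 167 lower. At 8-fold or more, 341 genes measured on both arrays were higher and 79 lower, and at 32-fold or more 47 and 13. The share of calls that were higher was 66.7%, 57.7% with quantile normalization, 56.3% with the authors' deposited log2 values, 43.2% with median centring and 27.8% with spike-in scaling. Median centring moved the typical measured gene by -0.39 and scaling to the spike-in controls, of which only 2 dim probes could be used, by -0.68. A difference between 0 and 0.68 therefore has a sign that depends on the scaling. The raw differences of the 2 spike-in probes were -0.10 and 0.62. The size of their shift, and so the limit of 0.68, is uncertain.

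Error of spotting and of probe choice could be sized. For probes spotted 10 times the SD between spots had a median of 0.059 log2 units on the imDC array and 0.047 on the maDC array. For the 3836 genes with exactly 2 probes measured on both arrays, the probes' differences lay a median of 0.44 apart, and 85.2% of these genes had a gap under 1. On the imDC array 69.7% of spots were well above background and on the maDC array 61.2%, and no spot was saturated. Neither error covers the spread between cultures, which was not measured.

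**Figure D1:**
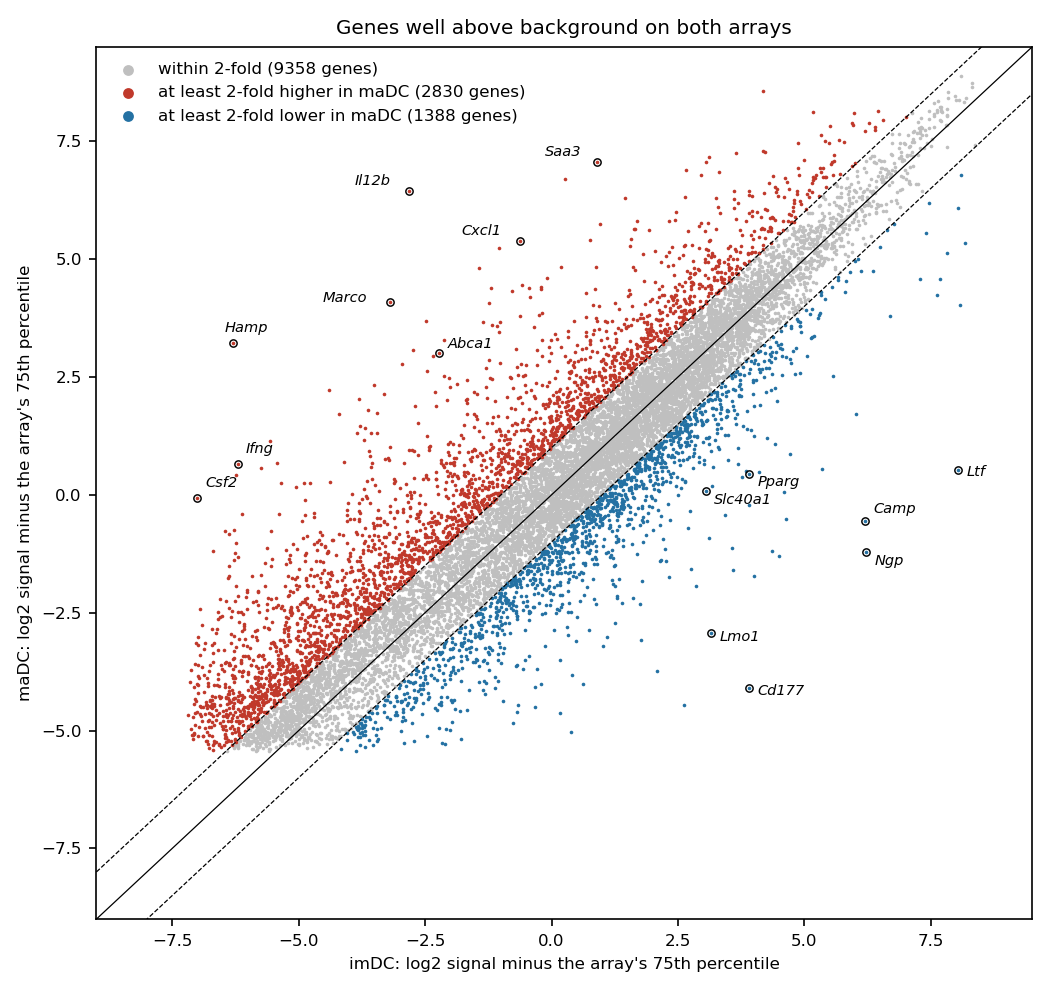
Level of each gene on the imDC array (x axis) and on the maDC array (y axis), as log2 signal minus the array's 75th percentile, for the 13576 genes well above background on both. Red points are the 2830 genes at least 2-fold higher in maDCs, blue points the 1388 at least 2-fold lower, and dashed lines mark 2-fold; Hamp and Il12b stand farthest above the diagonal and Cd177 and Ltf farthest below.

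The genes farthest above the diagonal were low on the imDC array and high on the maDC array. Il12b encodes the p40 chain of IL-12 and IL-23. Its probe (mm9 chromosome 11, 44227121 to 44227180) had levels of -2.82 in imDCs and 6.45 in maDCs, against -2.85 in sDCs and -3.56 in antibody-treated sDCs. It was spotted 10 times, with SDs between spots of 0.105 and 0.052, so the difference of 9.27 was far larger than the spotting error. Csf2, the gene of GM-CSF, had -7.01 in imDCs and -0.06 in maDCs, with a probe not well above background on both sDC arrays. Hamp, which encodes the iron hormone hepcidin, had -6.30 and 3.23 and lay at -4.30 and -4.06 in the sDC cultures. With the normexp background correction the difference was 4.61 for Csf2 in place of 6.95 and 7.61 for Hamp in place of 9.53, and 5.10 for Ifng, the gene of interferon gamma, in place of 6.87. In each of these genes maDCs stood apart from all 3 other arrays, those of the same slide included.

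Other large differences were shared with the sDC arrays. Abca1, a cholesterol exporter, had -2.22 in imDCs, 3.02 in maDCs, 4.23 in sDCs and 4.12 with the antibody. Cxcl1, a neutrophil attractant, had -0.63, 5.38, 4.84 and 4.55 in the same order. In these genes it was the imDC array that stood apart, from 3 arrays that all lay on the other slide and whose cultures had all received LPS. Those cultures had also all run longer, 4 to 5 days past day 4 for maDCs and to day 9 for the sDC cultures. Over all genes with a value, the imDC array was the lowest of the 4 in 40.9% and the maDC array the highest in 31.2%.

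**Figure D2:**
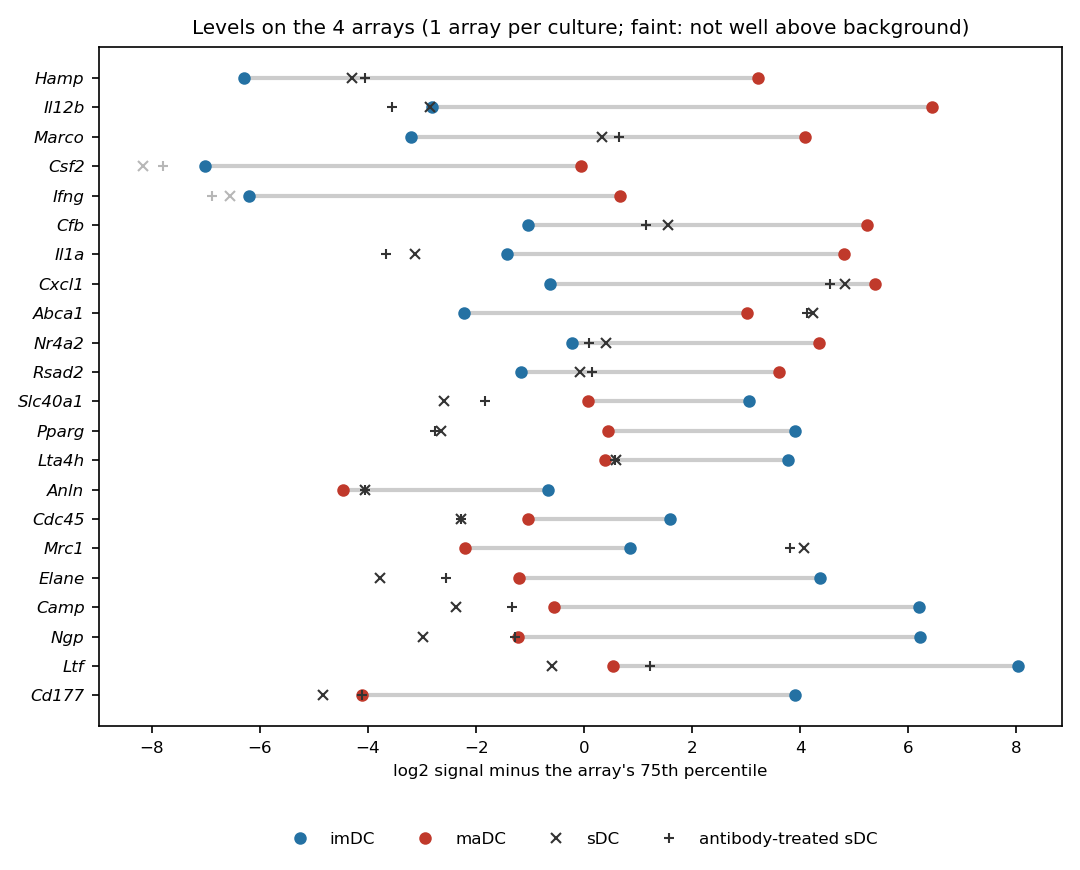
Level of selected genes on the 4 arrays, as log2 signal minus the array's 75th percentile (x axis), with filled circles for imDC (blue) and maDC (red), x for sDC and + for antibody-treated sDC, and faint symbols where the probe was not well above background. Il12b is high only on the maDC array (6.45), whereas Abca1 is low only on the imDC array (-2.22) and Ltf is high only there (8.04).

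Sensing of LPS was examined first, at the receptor. Cd14, whose product hands LPS to the receptor, had 4.22 in imDCs and 7.27 in maDCs (3.05), and Ly96, which encodes MD-2, had 0.47 and 2.55 (2.07). Tlr4 itself was at 0.13 and the adaptor gene Myd88 at -0.92, both within 2-fold. The signalling genes Traf1 (1.90) and Map3k8 (1.49) were higher, and the adaptor Tirap (-1.53) and the kinase Irak4 (-1.06) lower. Of 25 genes of the receptor and its adaptors, 4 were higher, 2 lower and 19 within 2-fold, with a median of 0.09 that turned to -0.59 under spike-in scaling. Among other pattern receptors 2 of 9 were higher, Tlr3 (2.45), a receptor for double-stranded RNA, and Tlr1 (1.17). That share, 22.2%, was near the 21.6% of all genes with a value.

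Sensors in the cytosol gave 10 higher and 2 lower of 20 (median 0.99). The nucleic acid sensors Zbp1 (3.21), Dhx58 (2.65), Ifi204 (2.40) and Ifih1 (1.99) were higher, although the remaining probes of Ifi204 ran from 0.20 to 2.97. Casp4, the caspase that senses LPS inside cells, was higher by 1.62. The bacterial sensors Nod1 (-1.49) and Nlrc4 (-1.41) were lower. Under spike-in scaling this list had 4 higher and 5 lower.

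Transcription factors downstream of these receptors, and the genes that damp them, had higher calls whose number depended on the scaling: under spike-in scaling 1 of 5 NF-kB subunits, 8 of 22 damping genes and 7 of 29 IRF, STAT and AP-1 genes were higher by over 2-fold. Of the 5 NF-kB subunits, Rel (2.64), Relb (1.49), Nfkb1 (1.32) and Nfkb2 (1.05) passed 2-fold and Rela, at 0.59, did not. Nfkb1 was read from 10 spots with SDs of 0.042 and 0.036. In the main scaling the damping genes were higher in 16 and lower in none of 22 (median 1.56). They were led by Zc3h12a (3.64), a ribonuclease that degrades cytokine mRNA, Socs3 (2.64), an inhibitor of cytokine receptors, Tnfaip3 (2.26), which encodes the ubiquitin editor A20, and the phosphatase genes Dusp4 (2.24) and Dusp2 (2.06). All 5 subunit genes and 16 of the 22 damping genes had their highest level of the 4 arrays in maDCs.

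Of the 29 IRF, STAT and AP-1 genes, 18 were higher and none lower (median 1.12). Maff (2.82), Irf7 (2.51), Irf1 (2.25), Stat2 (2.23) and Fosb (2.21) led. Fosb, Junb, Fos, Jun and Egr1 also belong to the handling list of immediate early and heat shock genes, in which 10 of 16 were higher and none lower (median 1.29). Hspa1a in that list was at 4.67 and 4.61 on another probe, and Hspb1 at 2.01; Hspa1a and Hspa1b are near-identical copies, and their values are uncertain. The part of handling in the AP-1 values was not tested.

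Lineage factors split. Higher were the orphan nuclear receptors Nr4a2 (4.57) and Nr4a1 (3.13), Maf (2.85), a macrophage factor, Prdm1 (2.66), which encodes Blimp-1, and Irf8 (2.50), needed for cross-presenting DCs. Lower were Pparg (-3.46), Gfi1 (-2.89), Cebpd (-1.73), Spi1 (-1.54) and Cebpa (-1.45). Pparg, a lipid-sensing nuclear receptor that IL-4 and GM-CSF can raise, had 3.90 in imDCs, 0.44 in maDCs, -2.65 in sDCs and -2.75 with the antibody, with spot SDs of 0.04 and 0.046 on the first pair. Gfi1 and Cebpa are factors of granulocyte development, and granulocyte markers were lower on the same array, as given below. Of 30 factors in all, 18 were higher and 5 lower (median 1.19), and 9 and 8 under spike-in scaling.

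The IL-12 family came next. Il23a, which pairs with the p40 chain to form IL-23, was higher by 4.36 (-6.56 to -2.20; 2.50 with normexp), and Il12a, which pairs with it to form IL-12, by 2.10 (-0.94 to 1.16). Ebi3, shared by IL-27 and IL-35, was higher by 2.32, while its partner Il27 was at 0.22. So 4 of 5 members were higher, and all 5 had their highest level in maDCs.

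In the IL-1 family, 10 of 17 members were higher and 2 lower (median 1.53). Il1a (6.25, and 6.33 on another probe) and Il1b (3.61) led the ligands, followed by Il33 (3.29). The IL-36 ligand genes parted: Il1f8 (2.67) and Il1f6 (2.35) were higher and Il1f9 lower (-1.96, and -2.27 on another probe). The IL-33 receptor gene Il1rl1 was higher by 3.02 and is also a marker of mast cells. The decoy receptor Il1r2 (-1.01) was lower, and the soluble inhibitors Il1rn (1.53) and Il18bp (2.71) higher.

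Of the IL-6 and IL-10 type cytokines, Il6 (4.64; 0.76 to 5.40), Il22 (4.19) and Il10 (4.05) were higher, and Il19 at least 3.64-fold so. Il10 was read from 10 spots, at -6.20 in imDCs with an SD of 0.198 and at -2.15 in maDCs with an SD of 0.027. Growth factors of blood cells were higher in 6 and lower in none of 10. Csf3, the gene of G-CSF, was at least 269-fold higher (8.07 in log2 units, and 5.49 with the processing that lowered it most). Il15 was higher by 2.25, Csf1 by 2.03 and Il4, which mast cells and basophils also make, by 1.76. GM-CSF and IL-4 were in the medium of the culture that both groups came from, but an array reads the cells' own transcripts.

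TNF family ligands were higher in 9 and lower in 1 of 14 (median 2.10). Tnfsf15 (4.16), which encodes the T cell costimulator TL1A, and Tnfsf11 (3.96), which encodes the osteoclast factor RANKL, exceeded Tnf itself (2.23). Tnfsf8 (2.85) and Tnfsf10 (2.62) followed. Ltb, whose product organizes lymphoid tissue, was the lower one, at 5.06 in imDCs and 2.95 in maDCs (-2.11).

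Among interferon genes, Ifnb1 was higher by 3.46 and Ifng by 6.87, while Ifna2 was at 1.05 and Ifna9 at -2.16; the interferon alpha genes are near-identical and may share probe signal. Ifng is made mostly by NK and T cells. NK and cytotoxic cell markers differed the same way: 10 of 12 were higher and 2 lower (median 2.90), and the summed intensity of the list, Ifng included, was 9658 on the imDC array and 28989 on the maDC array, a log2 ratio of 2.01 after scaling. Gzma was at least 239-fold higher (7.90 in log2 units, and 5.27 with the processing that lowered it most). Gzmb was at 4.67, Klrb1c at 3.10 and Eomes at 2.41. The NK receptor gene Ncr1 was not well above background on either array, and Prf1, the gene of perforin, was at least 2.63-fold lower in maDCs. The part of such cells in the Ifng value was not tested.

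Receptors for cytokines were examined beside the cytokines. Of 29 receptor genes, 9 were higher and 1 lower (median 0.81), and under spike-in scaling 2 and 6. Il7r (2.50), Tnfrsf1b (2.11), Il15ra (1.58) and Il2ra (1.55), receptor chains for IL-7, TNF, IL-15 and IL-2, were higher. Il17ra, the IL-17 receptor, was lower on both of its probes (-2.0 and -2.19).

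Chemokine genes are described by the receptor their products bind. Ligands of CXCR2, which draw neutrophils, were higher in 4 of 5: Cxcl1 (6.01), Cxcl3 (4.85), Cxcl5 (4.49) and Cxcl2 (2.56), with Ppbp, a platelet chemokine, within 2-fold at -1.0. All 3 ligands of CXCR3, which draw activated T cells, were higher, with Cxcl11 at 3.95, Cxcl10 at 3.20 and Cxcl9 at 1.27. Cxcl10 had 0.82 in imDCs and 4.02 in maDCs but -1.74 in sDCs and -1.79 with the antibody. Ligands of CCR2 or CCR3 were higher in 4 of 5, with Ccl12 at 4.49, Ccl8 at 3.88, Ccl7 at 3.85 and Ccl2 at 2.31. Ccl24, at 0.83, was within 2-fold.

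The remaining chemokines included those that draw T cells to mature DCs. The CCR4 ligand genes Ccl22 and Ccl17 were higher by 3.18 and 1.69, with Ccl17 at 6.45 in imDCs and 8.15 in maDCs, and the CCR7 ligand Ccl19 by 1.77, or 3.17 on another probe. Cxcl16 (3.99), Cx3cl1 (3.51), Ccl1 (3.47) and Cxcl14 (3.41) were higher too. Xcl1, a product of NK and T cells, was at least 37.2-fold higher (5.22 in log2 units, and 2.92 with the processing that lowered it most). Of 11 such genes 9 were higher and none lower.

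Receptors for chemoattractants went both ways, with 13 of 24 higher and 3 lower, and 5 and 4 under spike-in scaling. Cxcr5, the receptor that guides cells to B cell follicles, had -4.39 in imDCs and 0.26 in maDCs and lay at -4.46 and -4.57 in the sDC cultures. Ccrl2 (3.23), Cx3cr1 (3.09), Ackr3 (2.89) and the lymph node homing receptor Ccr7 (1.94) were also higher. The lower ones included Cxcr2 (-4.21) and Ltb4r1 (-3.35), the receptor for leukotriene B4. Cxcr2 is also a neutrophil marker, and that list was lower on the same array. Ltb4r1 had 3.85 in imDCs and 0.50 in maDCs but 3.47 and 3.64 in the sDC cultures, so only maDCs were low.

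Costimulatory genes, which support the activation of T cells, were higher in 10 and lower in 1 of 18 (median 1.27). Under spike-in scaling 6 were higher and 1 lower. Cd40 led at 3.15 (0.32 to 3.47, SDs of 0.019 over 9 and 0.028 over 10 spots), followed by Tnfsf9 (2.50), Icam1 (2.10), Tnfsf4 (1.97), which encodes OX40L, and Slamf1 (1.81). Cd24a was lower (-1.26). Inhibitory molecules were higher in 9 and lower in 3 of 23, with a median of 0.48 that was -0.19 under spike-in scaling. Ido2 (3.65, but 1.20 on another probe), a tryptophan-degrading enzyme, Gpnmb (2.87), Cd274 (2.52), which encodes PD-L1, and Havcr2 (2.43), which encodes TIM-3, were higher. Nt5e (-1.94), which makes adenosine, Vsir (-1.92), which encodes VISTA, and Cd300a (-1.17) were lower.

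**Figure D3:**
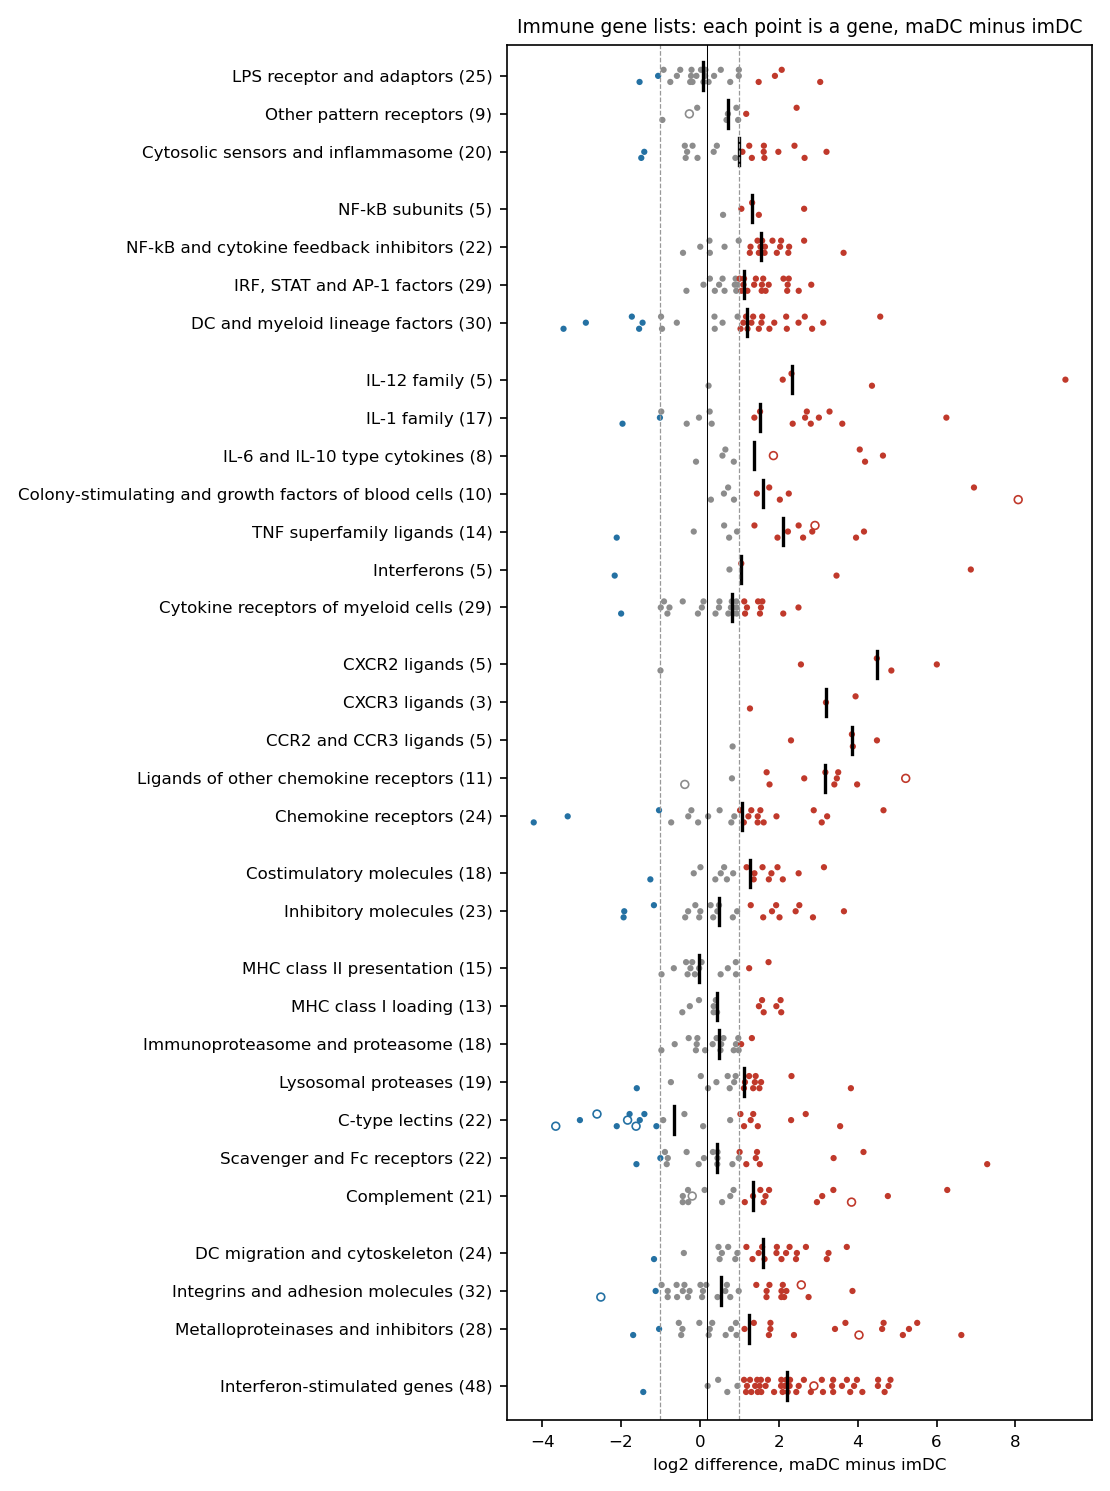
Difference of maDC minus imDC in log2 units (x axis) for each member of the immune gene lists (rows, with the number of members that had a value); red points are at least 2-fold higher, blue at least 2-fold lower, open points are bounds, thick bars are list medians, the thin line is the median of all genes (0.18) and dashed lines mark 2-fold. The interferon-stimulated genes lie almost all to the right (median 2.21), the MHC class II genes sit around 0 (median -0.02) and the C-type lectins spread to both sides.

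Genes of antigen presentation mostly lay within 2-fold. Class II genes were higher in 2 and lower in none of 15, at a median of -0.02 that was -0.70 under spike-in scaling. The 2 were H2-Oa (1.74, and 1.71 on another probe) and H2-Ob (1.25), which encode DO, a modulator of peptide loading. Class I genes were higher in 6 of 13 (median 0.44, and -0.24 under spike-in scaling). These were H2-M3 (2.06), Tapbp (2.05), H2-K1 (1.94), B2m (1.62), H2-D1 (1.58) and H2-T23 (1.5), that is, chains of the complex and tapasin, which loads it. The class I chain genes are near-identical to relatives and their values are uncertain. Of 18 proteasome genes only Psmb10 (1.32) and the activator Psme2 (1.05) passed 2-fold, and neither did under spike-in scaling.

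Lysosomal proteases, which cut antigen, were higher in 10 and lower in 1 of 19 (median 1.12), and 2 were higher under spike-in scaling. Ctsl (2.32) and Ctsd (1.51) were among the higher. Ctsw (3.83) is a cathepsin of cytotoxic cells and stands on that marker list too. The lower one was Ctsg (-1.60), a neutrophil granule protease.

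C-type lectins, receptors that bind sugars on microbes and cells, spread to both sides: 8 of 22 were higher and 10 lower, with a median of -0.66. Among the members well above background on both arrays the median was 0.42. Clec4e (3.56) and Clec4d (2.68), which encode Mincle and its partner MCL, were higher, as was Clec2d (2.31). Mrc1, the mannose receptor, was at -3.04, Clec4a2 at -2.11, and -2.83 on another probe, and Clec4b1 at -1.78. The langerin gene Cd207 was at least 12.6-fold lower, Cd209d at least 6.10-fold and Cd209a, a homologue of DC-SIGN, at least 3.56-fold. Mrc1 had 0.84 in imDCs and -2.20 in maDCs against 4.07 in sDCs and 3.81 with the antibody.

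Scavenger and Fc receptors were higher in 8 and lower in 2 of 22 (median 0.45, and -0.23 under spike-in scaling). Marco, a receptor for bacteria and particles, had -3.20 in imDCs and 4.08 in maDCs, with 0.33 and 0.65 in the sDC cultures. Timd4 (4.15), a receptor for dying cells, and Stab1 (3.39) were also higher. Msr1 was at 1.52 on its brightest probe but from 0.38 to 0.64 on its others. Fcgrt (-1.61), the neonatal Fc receptor that recycles antibodies, was lower.

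Complement genes were higher in 12 and lower in none of 21 (median 1.35). Cfb (6.27) and C2 (3.38, and 2.34 on another probe) encode the matching proteases of the alternative and classical pathways, and C1s1 (4.77) and C1ra (3.10) the proteases that start the classical one. C3, on which both pathways act, was at -0.44, within 2-fold. C1qc was higher by 2.97, and the regulator gene Cfi at least 14.4-fold. C1qc is also a macrophage marker, and that list is given below.

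Genes of DC migration and shape were higher in 16 and lower in 1 of 24 (median 1.61), and maDCs had the highest level of the 4 arrays in 19. Sema7a (3.72), a semaphorin, Apol7c (3.26), Rgs16 (3.22), a brake on chemokine receptors, and Tmem176a (2.69) led. Fscn1, which bundles the actin of mature DC dendrites, had 0.45 in imDCs and 2.72 in maDCs and lay at -3.0 and -3.65 in the sDC cultures. Anxa3 was the lower one (-1.16).

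Integrins and adhesion molecules were higher in 12 and lower in 2 of 32 (median 0.55, and -0.13 under spike-in scaling). Itgb8 (3.87), which activates TGF-beta, Selp (2.76), Itga5 (2.19), Itga3 (2.14, but 0.05 on another probe) and Icam1 were higher. Epcam, a marker of Langerhans cells and epithelia, was at least 5.70-fold lower, and Pecam1 was at -1.12. Metalloproteinases and their inhibitors were higher in 15 and lower in 2 of 28 (median 1.25). Mmp10 (5.51), Mmp13 (5.30), a collagenase, Adamts1 (5.15) and Mmp14 (4.66) passed 16-fold, as did the inhibitor gene Timp1 (4.62). Adamts1 had -3.84 in imDCs, 1.3 in maDCs, 1.32 in sDCs and 1.31 with the antibody. Timp2 (-1.03) and Mmp23 (-1.69) were lower.

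Several of those genes are also typical of stromal cells, whose markers were therefore set beside them. Of 17 stromal and endothelial markers with a value, 9 were higher, 3 of them as bounds, and 0 lower. The median was 1.08, but 0.72 over members measured on both arrays and 0.04 under spike-in scaling. The summed intensity of the list was 313123 on the imDC array and 227250 on the maDC array, a log2 ratio of -0.04 after scaling. Lox was higher by 5.02. Of the 5 defining markers, Dcn (5.02; -6.25 to -1.23) and Pdgfrb (2.56) were higher, with bounds of at least 3.45 for Col3a1 and 2.22 for Cdh5. The remaining defining marker, Col1a1 (-0.09, from 10 spots), lay within 2-fold, as did Col1a2 (-0.14). Their part in the matrix genes was not tested.

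Nearly all interferon-stimulated genes differed in 1 direction, with 43 of 48 higher and 1 lower, at a median of 2.21. The maDC array had the highest level of the 4 in 45. The guanylate-binding GTPase genes Gbp3 (4.83), Gbp2 (4.68) and Gbp6 (4.51), the antiviral gene Rsad2 (4.78, 4.86 to 5.09 on its other probes) and Ifit3 (4.52) led. Gbp3 had -0.45 in imDCs and 4.38 in maDCs against -0.16 in sDCs and -0.24 with the antibody. Rsad2 had -1.17, 3.61, -0.07 and 0.14 in the same order, so that only maDCs were high. The lower one was Ifitm6 (-1.44). Under spike-in scaling 31 were past 2-fold.

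Promoter sequences of RefSeq (assembly GRCm38.p6) were scanned on both strands over the 250 bases before each start for 5 motifs, and 11255 of the 14118 genes with a value had a promoter in the table. The interferon-stimulated response element was searched as GAAA, any 2 bases and GAAA, to which IRF and STAT complexes are known to bind. It was found in 19 of 37 interferon-stimulated genes with a promoter, or 51.4%, against 3.38% of genes with a value and 3.46% of all genes of the table. The kappa B motif, to which NF-kB is known to bind, was searched as GGGA, any 2 bases and TTCC, and found in 10 of 263 genes at least 8-fold higher (3.80%), against 1.48% of genes with a value and 1.36% of the table. The AP-1 motif TGANTCA stood in 11.8% of the genes at least 8-fold higher, 7 of 70 genes at least 8-fold lower (10%), 5.94% of those with a value and 7.82% of the table. A match is a description of the letters and not evidence of binding, and a missing match says nothing about a factor.

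The stretches below come from the genes at least 8-fold higher with the largest differences among those holding the kappa B or the interferon element, with Gbp3 added after the values were seen, as the leading member of its list. Capitals mark the motif, and all stretches lie before the start site and read 5′ to 3′ on the gene's strand. In Saa3, an acute-phase gene (6.16; chr7:46715752-46715841, minus strand), in Apol9b, an apolipoprotein L gene (5.83; chr15:77728995-77729071, plus strand), in Mmp13 (chr9:7272328-7272417, plus strand) and in Gbp3 (chr3:142559959-142560043, plus strand) the capitals are the interferon element or its reverse complement. In Cxcl1 (chr5:90891134-90891224, plus strand) they are kappa B, matched on both strands at overlapping positions. Apol9b and Gbp3 each held 2 overlapping matches of the interferon element, and no other motif overlapped the capitals in these stretches.
Saa3: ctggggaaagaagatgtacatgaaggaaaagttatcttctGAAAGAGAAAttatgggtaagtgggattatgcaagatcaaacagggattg
Apol9b: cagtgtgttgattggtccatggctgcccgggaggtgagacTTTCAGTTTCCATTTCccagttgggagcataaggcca
Mmp13: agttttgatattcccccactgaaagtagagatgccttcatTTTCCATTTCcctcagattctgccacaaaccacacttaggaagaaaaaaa
Gbp3: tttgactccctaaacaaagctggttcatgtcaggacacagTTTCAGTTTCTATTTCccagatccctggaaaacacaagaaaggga
Cxcl1: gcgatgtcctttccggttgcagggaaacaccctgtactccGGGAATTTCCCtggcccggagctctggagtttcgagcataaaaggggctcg

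Arginine was a branch point. Nos2, which makes nitric oxide from arginine, was at least 67.8-fold higher (6.08 in log2 units, and 3.66 with the processing that lowered it most). Arg1, which splits arginine to ornithine, was higher by 5.11. Both enzymes draw on the importer Slc7a2, at -2.0 in imDCs, 2.30 in maDCs, -3.02 in sDCs and -3.24 with the antibody. Acod1, which makes itaconate, was higher by 4.04, and 4.05 on another probe. Srm, the spermidine synthase downstream of ornithine, was lower (-1.53). Of 15 genes, 6 were higher and 1 lower.

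Genes of lipid mediators went both ways. Ptgs2, which encodes cyclooxygenase 2, was higher by 5.59 (-1.21 to 4.39, spot SDs 0.036 and 0.042), and Ptges, the prostaglandin E synthase that works with it, by 3.71. Lta4h, which makes leukotriene B4, was at 3.77 in imDCs and 0.38 in maDCs (-3.38), with 0.59 and 0.57 in the sDC cultures. Neutrophils are rich in this enzyme, and their part in its value was not tested. The lipoxygenase genes Alox15 (-1.64) and Alox12 (-1.21) were lower. The list as a whole had 5 higher and 3 lower of 22 (median -0.08). These shares, 22.7% and 13.6%, were near the 21.6% and 10.8% of all genes with a value. Under spike-in scaling, 3 were higher and 10 lower.

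Energy genes differed by pathway. Genes of glycolysis and the hypoxia response were higher in 11 and lower in 2 of 29 (median 0.55, and -0.13 under spike-in scaling). The higher ones were led by the secreted Adm (3.70) and Vegfa (2.78, 2.07 to 2.31 on its other probes), Bnip3 (2.24), Ankrd37 (2.22) and the lactate exporter Slc16a3 (1.85). Hk3, a hexokinase of granulocytes and other myeloid cells, was lower (-1.77). Of 36 subunits of the respiratory chain none was called, and their median was -0.09; under spike-in scaling 7 were lower. The citric acid cycle and fatty acid oxidation list had 7 of 26 lower and 1 higher (median -0.66), with 14 lower under median centring and 15 under spike-in scaling. Idh2 (-1.83), Acaa2 (-1.41), Idh3a (-1.33), Etfb (-1.26) and Ogdh (-1.20) were lower, enzymes of the cycle or of fatty acid breakdown. Idh2 was at 1.13 in imDCs, -0.70 in maDCs, -0.70 in sDCs and -0.45 with the antibody. The imDC array was the highest of the 4 in 21 of the 26 (80.8%), against 29.2% of all genes with a value.

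In cholesterol handling, the exporters Abca1 (5.24) and Abcg1 (1.81) and the hydroxylase Ch25h (2.95), which makes 25-hydroxycholesterol, were higher. Among synthesis enzymes Fdps (-2.06, and -1.30 on another probe), Mvd (-1.26) and Hsd17b7 (-1.22) were lower. Fdft1 was at -1.22 on its brightest probe but at 2.49 on another, so no direction can be given for it. Over 36 genes, 7 were higher and 5 lower, Fdft1 among the latter by its brightest probe, with a median of -0.09. These shares, 19.4% and 13.9%, were near the 21.6% and 10.8% of all genes with a value. Under spike-in scaling 3 were higher and 14 lower.

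Iron genes held Hamp, the largest difference among genes measured on both arrays. Its product, hepcidin, closes the iron exporter ferroportin, and ferroportin's gene Slc40a1 was lower: 3.05 in imDCs, 0.08 in maDCs, -2.59 in sDCs and -1.83 with the antibody (-2.97). Tfrc, the receptor for transferrin-bound iron, was lower too (2.79 to 0.57, with spot SDs of 0.038 and 0.039). The iron transporters Slc11a1 (2.24) and Slc11a2 (2.17), the ferroxidase gene Cp (4.67) and Hmox1 (4.23), which frees iron from haem, were higher. Metallothionein Mt2 (2.96) was higher as well. Of 33 genes of iron and oxidative stress, 13 were higher and 3 lower (median 0.72), and 9 and 6 under spike-in scaling.

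Retinoid genes were higher in 6 and lower in none of 18 (median 0.57, and -0.11 under spike-in scaling). These included the carrier Rbp4 (3.31), the retinoic acid-degrading enzyme Cyp26b1 (3.06) and the synthesizing enzyme Aldh1a3 (2.51). Amino acid transporters were higher in 7 and lower in 1 of 18. Slc1a2, a glutamate importer, was at 4.87 but ran from 1.27 to 6.70 over its other probes, and Slc1a5, a glutamine importer, was lower (-1.52). Genes driven by IL-4, which was in the medium of the culture that both groups came from, split: 5 of 25 were higher and 8 lower, with a median of 0.18 that was -0.50 under spike-in scaling. Arg1, Ccl22, Ccl17, Irf4 (1.21) and Tgm2 (2.12) were the higher ones, whereas Mrc1, Chil4 (-1.94), Alox15, Mgl2 (-1.52), Tfec (-1.49) and Fn1 (-1.27), with bounds for Cd209a and Cd209e, were the lower ones.

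**Figure D4:**
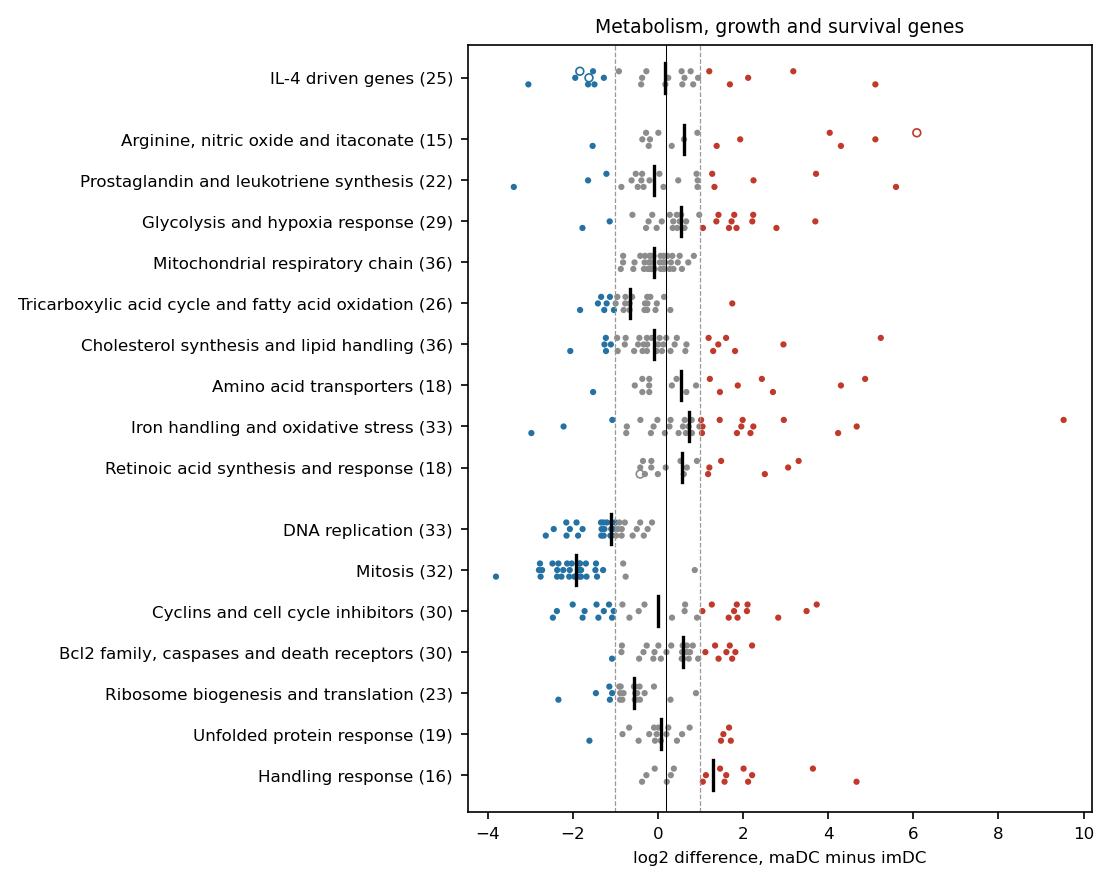
Difference of maDC minus imDC in log2 units (x axis) for members of the lists on metabolism, growth and survival (rows), drawn as in the plot of immune lists. The mitosis genes (median -1.92) and the DNA replication genes (median -1.10) lie to the left, the respiratory chain is narrow around its median of -0.09, and Hamp stands alone at 9.53.

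Genes of cell division were lower. Of 32 mitosis genes 29 were lower and none higher (median -1.92), and of 33 DNA replication genes 21 were lower and none higher (median -1.10). Anln, a scaffold of the dividing ring, was at -0.66 in imDCs and -4.46 in maDCs, with -4.06 and -4.05 in the sDC cultures, and another probe gave -2.40 in place of -3.80. The checkpoint kinases Bub1b (-2.79) and Ttk (-2.77), the spindle motor Kif11 (-2.76) and Cdk1 (-2.72), the kinase that starts mitosis, followed. Among replication genes Cdc45 (-2.63), Cdc6 (-2.45), Mcm10 (-2.15) and Mcm5 (-2.15), parts of the machinery that opens DNA, and Rrm2 (-2.07), which makes its building blocks, were lower. The imDC array had the highest level of the 4 in 31 of 32 mitosis genes and 31 of 33 replication genes. Over all genes with a value that share was 29.2%. Granulocyte precursors divide, and their genes Elane (-5.57) and Mpo (-2.69) were lower on the same array; their part in the division genes was not tested.

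The cell cycle homology region, searched as TTTGAA, and CCAAT are motifs known from promoters of mitotic genes. TTTGAA was found in 10 of 26 mitosis genes with a promoter (38.5%), 4 of 28 replication genes (14.3%) and 10 of 37 interferon-stimulated genes (27.0%), against 13.5% of genes with a value and 18.3% of the table. CCAAT was found in 76.9% of mitosis genes and 60.7% of replication genes, against 40.1% and 37.5%. The promoters of Kif11 (chr19:37376323-37376381, plus strand) and Cdk1 (chr10:69352913-69353023, minus strand), the members with the lowest differences among those that held TTTGAA, are shown up to the start site. Capitals mark TTTGAA or its reverse complement, both stretches also hold CCAAT or its reverse complement, and no other motif overlapped TTTGAA.
Kif11: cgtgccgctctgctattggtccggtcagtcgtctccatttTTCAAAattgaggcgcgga
Cdk1: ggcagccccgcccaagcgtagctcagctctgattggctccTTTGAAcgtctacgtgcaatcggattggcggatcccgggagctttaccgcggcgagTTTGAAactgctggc

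Regulators of the cycle spread to both sides. Several inhibitors and arrest genes were higher, with Cdkn2a (3.73; -5.17 to -1.44, SDs of 0.108 over 8 and 0.06 over 10 spots), Cdkn2b (2.83), Gadd45b (3.49, and 2.22 on another probe) and Btg1 (2.11). Ccnd2, a cyclin of the first gap phase, was higher too (2.09), while Ccnd3 (-2.47), Ccne2 (-2.37), E2f2 (-2.0) and E2f7 (-1.77) were lower, as was the inhibitor gene Cdkn2c (-1.40). In sum 11 of 30 were higher and 11 lower. Ribosome biogenesis and translation genes were lower in 5 and higher in none of 23 (median -0.56; 11 lower with median centring and 19 under spike-in scaling), with Rrp12 (-2.34) and Ncl (-1.46), which encodes nucleolin, farthest down.

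Genes of survival and death were higher in 8 and lower in 1 of 30 (median 0.59, and -0.09 under spike-in scaling). The higher ones held both kinds: the death genes Mlkl (2.21), Bmf (1.82), Bbc3 (1.75) and Pmaip1 (1.61), and the survival gene Cflar (1.69). Of 19 unfolded protein response genes 4 were higher (21.1%, against 21.6% of all genes with a value), led by Ern1 (1.71) and Ppp1r15a (1.67). The factor Xbp1, whose mRNA Ern1's product splices, was lower (-1.61). The median of that list was 0.07, and -0.61 under spike-in scaling.

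The labelled cell type was checked against its markers. All 5 defining DC markers were well above background on both arrays: Cd74 had 7.26 and 7.79, H2-Ab1 6.36 and 6.23, Itgax, which encodes CD11c, 2.93 and 3.70, Zbtb46 -2.50 and -1.20, and Flt3 -3.90 and -3.41. Only Zbtb46 passed 2-fold (1.31, and 1.08 to 2.25 on its other probes), while the other probes of H2-Ab1 ran from -1.10 to -0.79. Of 20 DC markers 8 were higher and 5 lower, among the latter Septin3 (-2.73), Naaa (-2.03) and Dpp4 (-1.41). Of 19 macrophage and monocyte markers, 10 were higher and 3 lower (median 1.13), and 5 and 5 under spike-in scaling. Adgre1, which encodes F4/80, was at 3.62 in imDCs and 6.45 in maDCs, and Ly6c1, a monocyte gene, at 3.94 and 1.37. Siglech, a marker of plasmacytoid DCs, was well above background on the imDC array and not on the maDC array, with no fold given.

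Granulocyte marker lists had the lowest medians of all lists. Of 19 neutrophil markers 15 were lower and 1 higher (median -4.05), and their summed intensity was 3020109 on the imDC array and 253884 on the maDC array, a log2 ratio of -3.15 after scaling. Camp, the gene of cathelicidin, had 6.21 in imDCs, -0.57 in maDCs, -2.38 in sDCs and -1.33 with the antibody (probe at mm9 chromosome 9, 109749992 to 109750051). Ltf, the gene of lactoferrin, had 8.04, 0.54, -0.59 and 1.22 in the same order, so that imDCs were high and the other 3 cultures low. Eosinophil markers were lower in 6 of 8, with Epx (-3.07) and Prg2 (-2.76), granule proteins, among them. The defining surface markers Siglecf (-0.89) and Ccr3 (0.21) lay within 2-fold. The Ear genes are near-identical copies. Both groups came from cells selected on beads for CD11c, a step meant to keep CD11c+ cells. The part of granulocyte transcripts in the lower genes was not tested.

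Mast cell and basophil markers went the other way, with all 15 that had a value higher (median 3.02) and highest of the 4 arrays in maDCs. Of these, 13 were measured on both arrays and 2, Mcpt1 and Mcpt2, were bounds with a probe dim on the imDC array. The list had 17 members on the array, and the tryptase genes Tpsb2 and Tpsab1 had no value. Their summed intensity was 63438 on the imDC array and 297201 on the maDC array, a log2 ratio of 2.65 after scaling. Cpa3, a mast cell protease gene, had 2.45 in imDCs, 5.99 in maDCs, -5.33 in sDCs and -4.34 with the antibody. Prss34 (3.69) and Mcpt8 (2.61), basophil proteases, and Gata2 (2.68, and 2.87 on another probe), a factor of both lineages, were higher as well. Il1rl1, Kit and Il4 belong to these cells too, and their part was not tested.

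Among lymphocyte markers 5 of 12 T cell genes were higher and 1 lower, and 5 of 8 B cell genes were higher and 1 lower. Under spike-in scaling 4 T cell genes were higher and 1 lower, and 3 B cell genes were higher and 2 lower. The T cell receptor complex itself did not follow Lat (2.79), Tcf7 (2.75) and Lck (2.56): Cd3e was at 0.86, Cd3g at 0.67 and Cd3d at -2.92. The B cell genes Blnk (3.30), Sdc1 (2.28) and Cd79b (2.05) were higher, while Pax5 was not well above background on either array. The B cell list's summed intensity was 10799 and 62686, and that of the T cell list 225331 and 173438, imDC first. After scaling the log2 ratios of these sums, maDC over imDC, were 2.96 and 0.04.

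The remaining marker lists were mixed. Blood progenitor genes were higher in 4 and lower in 3 of 12, with Mecom (2.36) and Ly6a (2.19) against Erg (-3.11) and Gfi1. Osteoclast genes were higher in 4 and lower in 1 of 9, led by Acp5 (3.28), with the defining marker Ocstamp (-1.0) the lower one. Plasmacytoid DC genes were higher in 4 and lower in 2 of 9, the latter Ly6d (-2.23) and Klk1 (-1.35). Under spike-in scaling 2 osteoclast genes were higher and 2 lower, and 2 plasmacytoid DC genes were higher and 3 lower. Red cell and platelet genes were higher in 4 and lower in none of 9, but 1 was higher and 2 lower under median centring and under spike-in scaling. The platelet chemokine gene Pf4, at 2.38, was the only 1 of its 4 defining markers with a value.

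**Figure D5:**
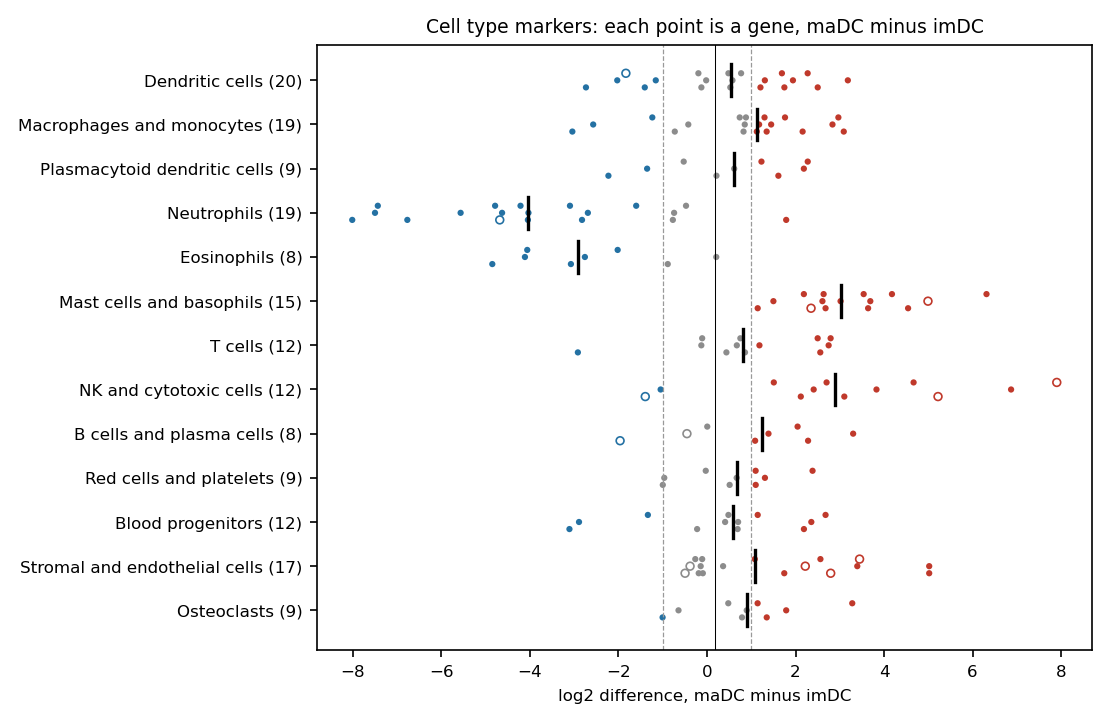
Difference of maDC minus imDC in log2 units (x axis) for members of the cell type marker lists (rows), drawn as in the plot of immune lists. Neutrophil markers reach -8.02 and eosinophil markers -4.85. All 15 mast cell and basophil markers with a value lie past 2-fold on the higher side. The DC markers spread around a median of 0.55 (-0.13 under spike-in scaling).

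Many of the largest differences lay outside the lists: 12 of the 30 largest higher and 11 of the 30 largest lower genes measured on both arrays were list members. Among the others, Plpp3, a lipid phosphatase of the cell surface, had -2.48 in imDCs, 3.70 in maDCs, 3.63 in sDCs and 3.79 with the antibody. Pmp22, a membrane protein best known from myelin, had -2.74, 3.07, 4.98 and 4.62 in the same order. Both were low on the imDC array alone. High on the maDC array alone were Nts, the gene of the peptide neurotensin (-2.95, 2.77, -4.88 and -5.31), and Dact2, a regulator of Wnt and TGF-beta signalling (-4.20, 1.71 and -5.84, and not well above background with the antibody). Areg (5.72), the gene of the growth factor amphiregulin, Tgfb2 (5.70) and Vnn3 (5.60), a pantetheinase gene, also had their highest level of the 4 arrays in maDCs. Dusp14, a phosphatase, was at 5.86 and 4.52 on another probe. Siglec1, a macrophage sialic acid receptor, was at 5.54 but at 1.46 on another probe.

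Among the largest lower genes, several are known from granulocytes or their precursors: Itgb2l (-7.08), Padi4 (-5.14, and -5.26 on another probe), Pglyrp1 (-4.79), Ms4a3 (-4.30), Ceacam10 (-5.73), Lrg1 (-5.81) and, as a bound, Olfm4 (at least 49.7-fold). They were not on the neutrophil list, and were grouped after their values were seen. Lmo1, a transcription cofactor gene, had 3.16 in imDCs and -2.93 in maDCs and was not well above background on either sDC array. G0s2, an inhibitor of fat breakdown, had 2.09, -3.75, -4.37 and -3.23. The largest bounds were those of Fgf22, a fibroblast growth factor gene, at least 1183-fold lower, and Ankrd22, at least 111-fold, and for neither was another probe measured on both arrays. Clec4f, a lectin of liver macrophages, was at least 106-fold lower and Lipg, a lipase gene, at least 52.8-fold. Phlpp2 was at -4.53 on its brightest probe and at 0.30 on another, so its value rests on 1 probe.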

How the data were processed

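RNA from each culture was labelled and hybridised to 1 Agilent whole mouse genome array. The authors deposited scanner output with an intensity for each spot, made per the file headers with Feature Extraction 10.5.1.1 (9.1 per the submitters' processing notes), and a table of log2 values; probe positions are in mm9, and exon or intron was not looked up. From the background-corrected processed signal, outlier spots were removed, spots of a probe averaged, and each array's 75th percentile over non-control spots subtracted after log2. A gene took the probe with the highest mean log2 level over the 4 arrays. For a probe dim on 1 array, the bound used the larger of its signal there and that array's lowest signal well above background. Such a bound is an estimate from a dim signal and is not guaranteed. With 1 array per group no p-value, interval or test across genes was computed, and the number of arrays limits the precision. The code was tested on simulated data.

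Gene lists and members were chosen with earlier results of these data known. Names were taken from, per list, up to 5 members in each direction with the largest measured differences past 2-fold, the 3 largest bounds, other members only of lists of 18 or fewer and defining markers, and the 30 largest differences and 10 largest bounds in each direction. C3, Casp4, Cdkn2c, Col1a2, Fn1, Myd88, Slc11a2, Timp1 and Tlr4 were named after their values were seen. Promoters came from RefSeq (GRCm38.p6). Some items are not reported here. Alternatives covered scaling, background, filters, probe choice, outlier spots and the authors' table. Python 3.11.15, pandas 2.3.3, numpy 2.4.6, matplotlib 3.10.9, R 4.3.3 and limma 3.58.1 were used.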

Additional observations from a re-analysis of the deposited data

How the results depend on the processing

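Of 446 named genes past 2-fold, 368 stayed past it under all 9 alternatives and 445 kept their sign. The exception was Fdft1, at 0.64 with the mean over its probes, the brightest probe and another pointing opposite ways. These genes were named largely for the size of their differences, and the largest scaling shift was -0.68. A shift of that size cannot turn the sign of a difference past 2-fold, so the kept signs were largely fixed in advance. The count of genes higher in maDCs was 3047; it was 6217 with no filter on dim probes, where probes without signal enter, and 1554 with spike-in scaling. The count lower was 1518; it was 2716 with median centring and 4040 with spike-in scaling. The spike-in shift rests on 2 dim control probes, whose raw differences were -0.10 and 0.62. Its size is uncertain, and scaling to the probe at 0.62 alone would have given a larger shift. Of the 63 lists, 20 had a median that changed sign in some setting, and in 14 the leading direction of calls changed. None of the 32 medians of at least 1 in size was reversed, but no scaling shift that was used was large enough to reverse such a median. No paired analysis was possible because each group was 1 array and the titles carry no replicate numbers, and for the same reason no array could be left out. On the maDC array fewer spots were well above background, so low genes there are more often bounds or without a fold.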
